A study of Mus musculus with 20 samples.

Results

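The phagocyte NADPH oxidase was followed through 5 of its subunit genes, Cybb, Cyba, Ncf1, Ncf4 and Rac2, chosen by symbol. All 5 were listed in both deposited tables, out of 20375 genes in all. The genes were picked with their fold changes and q-values at both times already known, so these values are given as a description and support no test. The study injected CDS or PBS into the medial prefrontal cortex of C57BL/6 mice and sequenced total RNA of that region. The labels give CDS without its full name, and the series title names a model of microglia depletion. The groups were CDS and PBS cortex 5 days after injection (postnatal day 47, injected at 6 weeks of age), and CDS and PBS cortex 6 weeks after injection (postnatal day 84, 12 weeks of age). Each group held 5 samples, which the labels number within a group without saying whether each came from its own animal, so the q-values measure the spread between these samples.

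The oxidase moves electrons from NADPH inside the cell across a membrane to oxygen, and the superoxide that results is the start of the oxidative burst of phagocytes. The catalytic protein gp91phox, encoded by Cybb, and its partner p22phox, encoded by Cyba, sit in the membrane as a heterodimer. Cytosolic subunits, among them p47phox (Ncf1) and p40phox (Ncf4), and a Rac GTPase join them on stimulation. In the brain the enzyme is best known from microglia and other macrophages, and Rac2 is the Rac protein of blood-derived cells.

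The values come from the authors' deposited comparisons, which give for each gene and time the log2 ratio of CDS to PBS (log2 fold change) with its q-value. A gene was taken as past the threshold where that q was under 0.05. No value per sample is held in these tables, so levels, depth and overlap between samples could not be shown, and the tissue could not be checked against its markers. Errors are standard errors implied by the fold change and q, with 95% intervals from them. In bulk tissue, fewer cells of a type and less RNA per cell cannot be told apart.

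Cybb was higher in CDS cortex at both times. In the authors' deposited table it rose by 1.27 on the log2 scale at 5 days (implied SE 0.30, q = 0.00169), which is 2.41-fold with an interval from 1.59-fold to 3.63-fold. At 12 weeks it rose by 1.47 in the authors' deposited table (implied SE 0.32, q = 0.00341), which is 2.77-fold with an interval from 1.80-fold to 4.26-fold. The change at 12 weeks exceeded that at 5 days by 0.20 on the log2 scale, less than the combined implied SE of 0.44. At 5 days the authors' table had 560 genes (2.75%) past the threshold in the higher direction, and among them Cybb took place 72 by size of change. At 12 weeks there were 19 such genes (0.0933%) in the authors' table, and Cybb took place 3. With the stricter Bonferroni adjustment of the recovered p, Cybb missed the threshold at both times (adjusted p = 0.591 at 5 days and 0.0784 at 12 weeks).

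None of the other 4 subunits passed the threshold at either time. Over all genes, 5.92% passed at 5 days (3.18% lower in CDS) and 0.191% at 12 weeks (0.0982% lower in CDS). At 5 days the authors' deposited table placed the median of the 5 log2 fold changes at 0.03 and that of all genes at -0.02. At 12 weeks the medians in the authors' deposited table were 0.05 for the 5 genes and -0.0022 for all genes. Both times 3 of the 5 lay above 0 and 2 below.

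**Figure D1:**
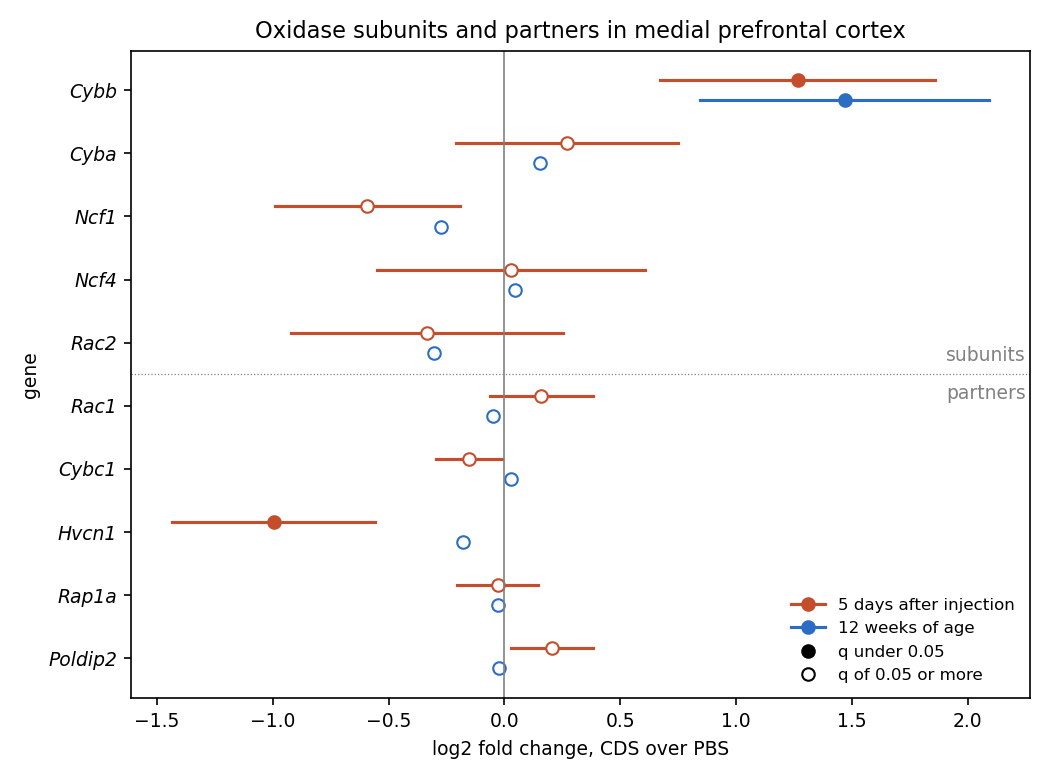
Log2 fold change (CDS over PBS) on the horizontal axis for the 5 oxidase subunits (above the dotted line) and 5 partner genes (below it), at 5 days after injection (orange) and 12 weeks of age (blue). Points are the authors' values, filled where q was under 0.05, and bars are 95% intervals from the implied standard errors, drawn where these could be recovered. Cybb stands at 1.27 and 1.47, and Hvcn1 at -0.995 at 5 days is the other filled point.

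Cyba, whose protein stabilises gp91phox, stood at 0.27 at 5 days in the authors' deposited table (implied SE 0.24, q = 0.598). Its interval ran from -0.21 to 0.75, and that of Cybb from 0.67 to 1.86. At 12 weeks Cyba stood at 0.15 in the authors' deposited table. The change of Cybb thus exceeded that of its membrane partner by 0.997 on the log2 scale at 5 days and by 1.32 at 12 weeks. No error can be given for these gaps, because the tables do not say how the genes vary together, and they were not tested.

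The cytosolic subunits lay near or below 0. Ncf1, the organiser subunit that is phosphorylated on activation, was the lowest of the 5 at 5 days, at -0.59 in the authors' deposited table (implied SE 0.20, q = 0.0566). That q lay just outside the threshold (4.66% of all genes were lower with a q under 0.1), and a Benjamini-Hochberg adjustment that left out non-coding genes gave 0.0473. Its interval ran from -0.99 to -0.19. At 12 weeks Ncf1 stood at -0.27 in the authors' deposited table. Ncf4, whose protein binds a membrane phosphoinositide through its PX domain, stood at 0.03 at 5 days and 0.05 at 12 weeks in the authors' deposited table (implied SE 0.30 at 5 days, q = 0.973). Its interval at 5 days ran from -0.55 to 0.61.

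Rac2, the GTPase that completes the active complex, stood at -0.33 at 5 days and -0.30 at 12 weeks in the authors' deposited table (implied SE 0.30 at 5 days, q = 0.593). Its interval at 5 days ran from -0.92 to 0.25. Rac2 and Rac1 are close paralogs, and their separate values are uncertain where reads were shared. At 12 weeks Cyba, Ncf1, Ncf4 and Rac2 shared the highest q of the table, 0.999997, with 20103 genes in all, so no standard error could be recovered for them there. Between the times, the change of Ncf1 was 0.32 higher at 12 weeks, that of Cyba 0.12 lower (-0.12), and those of Rac2 and Ncf4 differed by 0.03 and 0.02 on the log2 scale.

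The 5 genes lie on 4 chromosomes of GRCm38, as annotated in GENCODE M21. Cybb spans chromosome X, 9435252 to 9487771, minus strand, with no overlapping gene. Its nearest measured neighbours, Xk at 122001 bases and Dynlt3 at 166495 bases, stood at -0.03 and -0.01 at 5 days and at -0.03 and 0.02 at 12 weeks in the authors' deposited table. Neither neighbour passed the threshold. Cyba lies on chromosome 8, 122424776 to 122432930, minus strand, inside Gm20388 of the other strand. Mvd, an enzyme of sterol synthesis, lies 670 bases from Cyba and stood at 0.25 at 5 days and 0.08 at 12 weeks in the authors' deposited table, without passing. Ncf1 lies on chromosome 5, 134220053 to 134229625, minus strand. The opposite gene Gtf2ird2 overlaps it and stood at 0.03 at 5 days in the authors' deposited table. The libraries were stranded per the labels, but the strand setting of the counting is not given in the sources used here. Ncf4 (78244801 to 78262580, plus strand) and Rac2 (78559167 to 78572783, minus strand) share chromosome 15 and overlap no other gene. The measured genes that lie nearest to the 5 subunits or overlap them numbered 11. Of these, 1 passed the threshold at 5 days and 0 at 12 weeks, beside 5.92% and 0.191% of all genes. The gene that passed was Cyth4, an exchange factor for ARF GTPases, 24263 bases from Rac2. Cyth4 fell by 0.82 at 5 days (q = 0.00015) and stood at -0.30 at 12 weeks in the authors' deposited table. Csf2rb2, 19926 bases from Ncf4, stood at -1.31 at 5 days in the authors' deposited table without passing (q = 0.138).

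Promoter windows are shown for Cybb, Cyba and Ncf1. RefSeq on GRCm38.p6 held windows for these 3 of the 5 genes only, from 250 bases before the start to 50 after it. The Cybb window (chrX:9469275-9469574, minus strand) lies inside the annotated span of the gene, which has a further start upstream. The Cyba window is chr8:122432891-122433190 and the Ncf1 window chr5:134229576-134229875, both on the minus strand. Capitals mark matches, on either strand, to GAGGAA, a core bound by PU.1 and other ETS factors, or to AANNGAAA, a core bound by interferon regulatory factors.
Cybb: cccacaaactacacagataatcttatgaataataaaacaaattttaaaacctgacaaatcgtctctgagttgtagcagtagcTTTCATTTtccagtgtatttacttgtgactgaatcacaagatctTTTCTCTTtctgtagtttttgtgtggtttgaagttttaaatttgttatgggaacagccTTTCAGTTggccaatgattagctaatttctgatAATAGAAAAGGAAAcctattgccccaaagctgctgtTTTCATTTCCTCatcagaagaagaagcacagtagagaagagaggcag
Cyba: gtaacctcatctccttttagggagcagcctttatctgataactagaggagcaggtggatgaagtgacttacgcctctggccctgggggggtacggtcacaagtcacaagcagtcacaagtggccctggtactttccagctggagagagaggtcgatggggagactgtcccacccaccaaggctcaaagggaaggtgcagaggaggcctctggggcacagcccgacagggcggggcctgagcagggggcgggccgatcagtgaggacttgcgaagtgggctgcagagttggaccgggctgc
Ncf1: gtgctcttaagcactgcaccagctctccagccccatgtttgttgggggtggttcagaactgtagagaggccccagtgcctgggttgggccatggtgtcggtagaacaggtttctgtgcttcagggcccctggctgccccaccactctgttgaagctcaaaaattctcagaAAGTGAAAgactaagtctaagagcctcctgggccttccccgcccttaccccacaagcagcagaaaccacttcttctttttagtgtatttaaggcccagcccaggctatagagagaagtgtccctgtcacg

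The Cybb window held 1 GAGGAA match, on the other strand of the window at bases 10 to 15, counting the start as base 1 and the base before it as -1. It also held 6 AANNGAAA matches, which begin at bases -168, -124, -66, -33, -27 and 4. The match at -33 overlaps the next one, and the last overlaps the GAGGAA match. The Ncf1 window held 1 AANNGAAA match, beginning at base -80, and the Cyba window held neither motif. Of all 32851 windows of this length, 28.3% held GAGGAA and 23.9% held AANNGAAA. As many as 6 AANNGAAA matches were found in 4 of the 32851 windows, a count made after the Cybb window had been read. Windows no richer in GC than that of Cybb numbered 1413, of which 55.1% held AANNGAAA at least once and 3 held it 6 times or more. No match to TTGCNNAA, a core of C/EBP sites present in 10.8% of all windows, was found in the windows shown. Base composition differs between them. GC content was 35.3% for Cybb, 60.7% for Cyba and 54% for Ncf1, against a median of 52.7%. A match is a run of letters and does not show binding.

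Among 5 further genes that work with the complex, 1 fell at 5 days, beside 3.18% of all genes, and none passed at 12 weeks, beside 0.191% of all genes. Hvcn1, the voltage-gated proton channel that balances the charge moved by the oxidase, fell by 0.995 in the authors' deposited table (implied SE 0.22, q = 0.000643), and stood at -0.18 at 12 weeks. Cybc1, a chaperone needed for the membrane heterodimer, stood at -0.15 at 5 days and 0.03 at 12 weeks in the authors' deposited table. Rac1, the broadly expressed Rac protein, stood at 0.16 and -0.05 at these times in the authors' deposited table. Rap1a, a GTPase that copurifies with the heterodimer, stood at -0.03 both times, and Poldip2, a p22phox-binding protein, at 0.21 and -0.02 in the authors' deposited table. Of 9 genes for the other NADPH oxidases and their helpers, Nox4 and Noxo1 were listed. Nox4, a form that makes hydrogen peroxide without stimulation, stood at 0.23 at 5 days and -0.31 at 12 weeks in the authors' deposited table. Noxo1, an organiser subunit, stood at 0.03 and -0.27 in the authors' deposited table. Neither passed at either time, beside 5.92% of all genes at 5 days and 0.191% at 12 weeks.

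Taking the 6 pathway lists as 1, each gene once, 21 of 77 measured genes passed the threshold at 5 days in the authors' deposited table, 7 higher and 14 lower, beside 5.92% of all genes. At 12 weeks none of the 77 passed, beside 0.191% of all genes. Of the 77, 1, P2rx7, had a recovered unadjusted p under 0.05 at 12 weeks. That count is a minimum, since p could be recovered there for 272 genes of the table only. DESeq2 is the one testing tool that the submitters' processing notes name.

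Receptors and adaptors known to trigger or tune the burst fell in part at 5 days. Of 15 measured, 7 fell and none rose, beside 3.18% of all genes lower. The authors' deposited table gave the 15 a median of -0.79, against -0.02 for all genes. The integrin chain Itgam, which forms the complement receptor with Itgb2, fell by 1.92, and Itgb2 fell by 0.82 (the authors' deposited table, q = 1.37e-15 and 0.0181). The activating Fc receptors for IgG Fcgr3, Fcgr1 and Fcgr4 fell in the authors' deposited table to log2 fold changes of -1.81, -1.48 and -2.30 (implied SE 0.20, 0.28 and 0.57). P2rx7, the ATP-gated channel, fell by 1.04 (q = 1.06e-12, the authors' deposited table). Tyrobp, a signalling adaptor of myeloid cells, was the seventh, at -0.79 in the authors' deposited table. The adaptor Fcer1g of the same list stood at -0.37 at 5 days without passing (q = 0.474, the authors' deposited table). Both were named after their values were seen. At 12 weeks the receptors had a median of -0.16 and ranged from -0.42 to 0.98 in the authors' deposited table.

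The signalling genes between receptor and oxidase fell in part. Of 21 kinases, exchange factors and GTPase inhibitors, 4 fell and none rose at 5 days, beside 3.18% of all genes lower. The authors' deposited table put the median of the 21 at -0.10. Pik3cg, the lipid kinase subunit of chemoattractant signalling, fell by 0.97, and the Rac exchange factors Vav1 and Dock2 fell by 0.92 and 0.77 (q = 4.94e-07, 9.59e-06 and 0.000196, all from the authors' deposited table). Prkca, one of the kinases that phosphorylate p47phox, fell by 0.39 (q = 0.0414, the authors' deposited table). At 12 weeks their list ranged from -0.34 to 0.15 around a median of -0.03 (the authors' deposited table).

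Of 9 measured transcription factors of myeloid cells, several of them known to act on oxidase genes, 2 fell and 1 rose at 5 days. Over all genes, 3.18% were lower and 2.75% higher. Irf8 fell by 0.89 and Runx1 by 1.05, while Cebpb rose by 0.67 (q = 0.000818, 0.0114 and 0.0384, the authors' deposited table). At 12 weeks the 9 factors ranged from -0.36 to 0.10 in the authors' deposited table, and none passed, beside 0.191% of all genes.

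Enzymes and regulators that handle superoxide and peroxide, or respond to oxidants, rose in part at 5 days. Of 25 measured, 6 rose and none fell, beside 2.75% of all genes higher. The median was 0.12, against -0.02 for all genes, and 23 of the 25 lay above 0 (the authors' deposited table). The secreted superoxide dismutase Sod3 rose by 0.62, the peroxiredoxin Prdx6 by 0.47 and catalase, encoded by Cat, by 0.23 (q = 0.00126, 0.000925 and 0.00698, the authors' deposited table). Thioredoxin (Txn1), the NRF2 inhibitor Keap1 and heme oxygenase (Hmox1) rose by 0.28, 0.19 and 0.99 (q = 0.0334, 0.0232 and 0.0473, the authors' deposited table). At 12 weeks the 25 genes ranged from -0.06 to 0.28 around a median of 0.03 (the authors' deposited table).

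**Figure D2:**
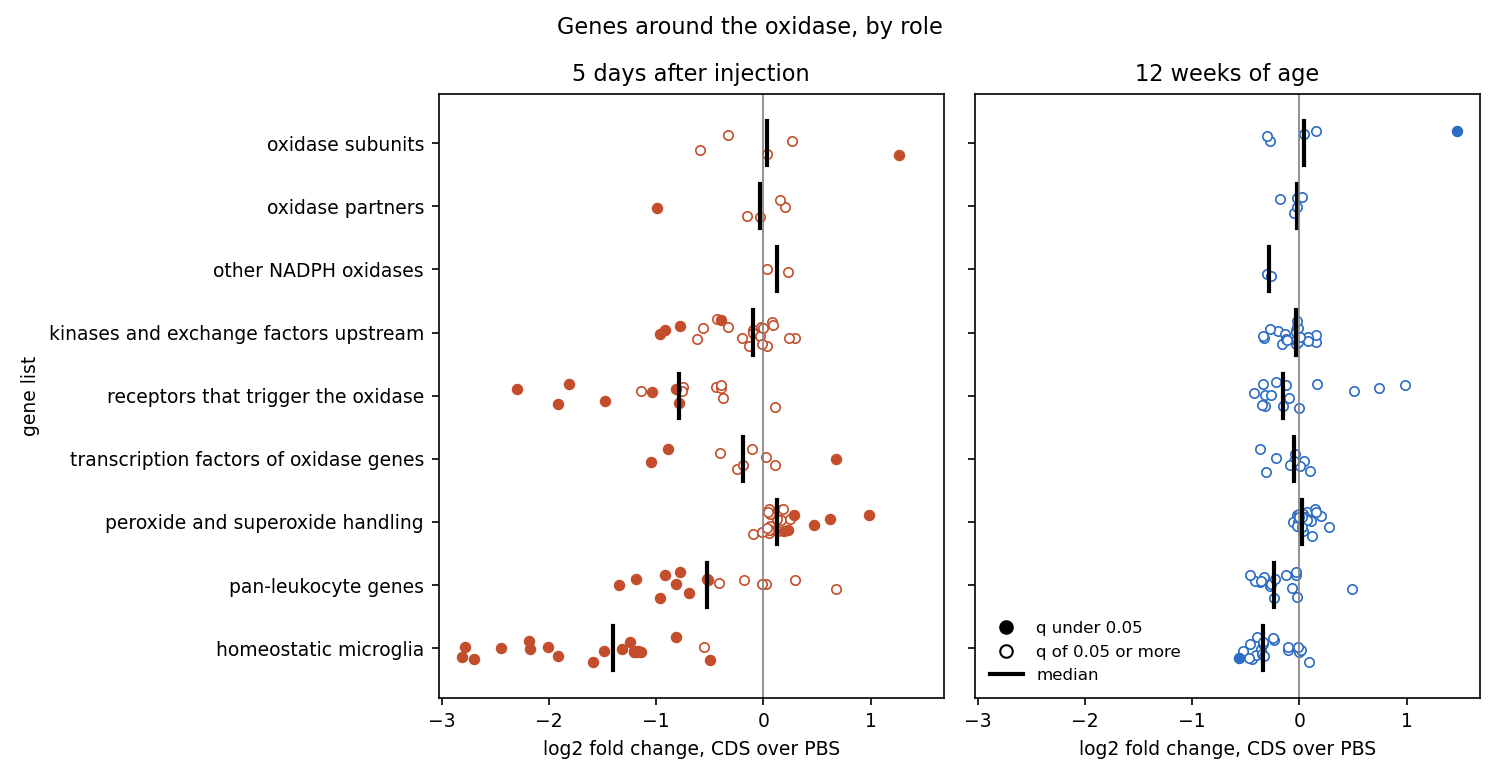
Log2 fold change between CDS and PBS (CDS over PBS, horizontal axis) for each measured gene of 9 lists (rows), 5 days after injection on the left and at 12 weeks on the right. Filled points had a q under 0.05, open points did not, and the black bar is the list's median; vertical scatter within a row carries no value. The receptors have a median of -0.79 at 5 days and -0.16 at 12 weeks, while Cybb is the filled point of the top row at 1.27 and 1.47.

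At 5 days the rise of Cybb stood beside falls in markers of microglia and in part of the genes shared by leukocytes, cells that can carry the oxidase. Of 20 homeostatic microglia markers, 19 fell and none rose at 5 days, beside 3.18% of all genes lower. The median of the 20 in the authors' deposited table was -1.41. The lowest q in this list were those of Slc2a5, P2ry13 and P2ry12, at -2.82, -2.45 and -2.70 in the authors' deposited table. At 12 weeks 1 of the 20, Slc2a5, fell, beside 0.0982% of all genes lower, and the median was -0.34 in the authors' deposited table. Of 15 genes shared by leukocytes in general, 9 fell and none rose at 5 days, beside 3.18% of all genes lower. The authors' deposited table placed the list's median at -0.53, and Ikzf1, a transcription factor of leukocytes, fell by 1.35. Of the 15, 3 lay above 0 at 5 days. Cd52, named after its value was seen, was the highest at 0.68 without passing (q = 0.201, the authors' deposited table). At 12 weeks the authors' deposited table placed the list's median at -0.24 and none passed, beside 0.191% of all genes. The unadjusted p recovered from q was then under 0.05 for 2 of the 15, and for 5 of the 20 microglia markers. These counts are minimums, since genes sharing the highest q gave no p. How far both lists reflect the same cells was not tested. The lists share members with the pathway lists above. Vav1, Dock2, Itgb2 and Arhgdib of the leukocyte list and Itgam of the microglia list were counted there too.

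Markers of other phagocytes and of lymphocytes moved in both directions. Of 13 monocyte genes 8 were listed, and Ccr2 and Itgal rose by 1.26 and 1.58 at 5 days, while the third by q, Ace, stood at 0.20 in the authors' deposited table. The list was split, with 4 of the 8 below 0 and its median at 0.08 (the authors' deposited table), beside 2.75% of all genes called higher. At 12 weeks Ccr2 stood at 0.33 and Itgal at -0.44 in the authors' deposited table. No monocyte gene passed then, beside 0.191% of all genes. Of 14 neutrophil genes 7 were listed, with Mmp9 higher by 1.29, Csf3r lower at -1.68 and Ngp at -2.16 without passing, at 5 days in the authors' deposited table. Of these 7, 5 lay below 0 and the median was -0.89, beside 2.75% of all genes called higher and 3.18% lower. At 12 weeks 6 of the 7 lay below 0 around a median of -0.76 (the authors' deposited table). None of these 7 passed then, beside 0.191% of all genes. Of 14 border macrophage genes 1 rose and 4 fell at 5 days, with Cd163, Cd209f and Cd209g at -3.62, -5.49 and -5.02 in the authors' deposited table, beside 5.92% of all genes called. The one that rose was Cbr2, at 1.06 (q = 0.00812, the authors' deposited table), named after its value was seen. Of the 14, 6 lay above 0, and the median in the authors' deposited table was -0.29. At 12 weeks 3 of these 14 fell and none rose in the authors' deposited table, beside 0.0982% of all genes lower. Their median was then -0.03, with 7 of the 14 above 0 and 7 below (the authors' deposited table). Ms4a7, Ccl8 and Folr2 were the highest then, at 1.53, 1.36 and 1.10, without passing (q = 0.084, 0.999997 and 0.999, the authors' deposited table). They were named after their values were seen. Of 20 genes of activated microglia 1 rose at each time, Spp1 being the one at 12 weeks, at 1.61 in the authors' deposited table, named after its value was seen. Lgals3 rose by 1.78 at 5 days, with Axl and Ch25h at 0.23 and 0.75 in the authors' deposited table, neither past the threshold. Of the 20, 8 lay below 0 at 5 days, with Cst7 the lowest at -1.69 and the list's median at 0.06 in the authors' deposited table. The count of 1 in 20 at 5 days lies near the 2.75% of all genes higher and is no result about the list. At 12 weeks Spp1 alone made up 5% of the list, beside 0.0933% of all genes higher. The list's median was then 0.08, with 5 of the 20 below 0 (the authors' deposited table). Of 16 lymphocyte genes 4 were listed, among them Trac, Cd4 and Lck at 0.78, -0.24 and 0.01 at 5 days in the authors' deposited table. None of the 4 passed at 5 days, beside 5.92% of all genes. The part of monocytes and other cell types in the change of Cybb was not tested.

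Genes with a change like that of Cybb were sought among the 36 that passed the threshold at both times, 16 of them higher at both and 20 lower at both. The 16 made up 2.86% of the genes higher at 5 days and 84.2% of those higher at 12 weeks. By distance over the 2 log2 fold changes of each gene, the 5 nearest to Cybb were Postn, Lum, Col13a1, H2-Ab1 and Col4a6, at distances of 0.32, 0.34, 0.34, 0.54 and 0.64. The smallest of these are near the implied SE of Cybb, 0.30 at 5 days and 0.32 at 12 weeks, so their order is uncertain. At 12 weeks Postn, H2-Ab1 and Col4a6 had q of 0.0211, 0.0343 and 0.0267 in the authors' deposited table. Postn, a matrix protein of connective tissue, stood at 1.40 at 5 days and 1.18 at 12 weeks in the authors' deposited table (implied SE 0.28 both times). Lum, a collagen-binding proteoglycan, stood at 1.58 and 1.33, and Col13a1, a transmembrane collagen, at 1.57 and 1.31 in the authors' deposited table. H2-Ab1, the class II beta chain of antigen-presenting cells, stood at 1.19 and 0.93, and Col4a6, a basement membrane collagen, at 1.30 and 0.83 in the authors' deposited table. All 5 had a smaller change at 12 weeks than at 5 days. Of the 16 genes higher at both times, 5 had the larger change at 12 weeks, namely Cybb, Edn3, Abca8a, Itih5 and Kif5a, the last 4 named after their values were seen. Edn3 stood at 0.63 at 5 days and 0.96 at 12 weeks in the authors' deposited table, and none of these differences between the times was tested.

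**Figure D3:**
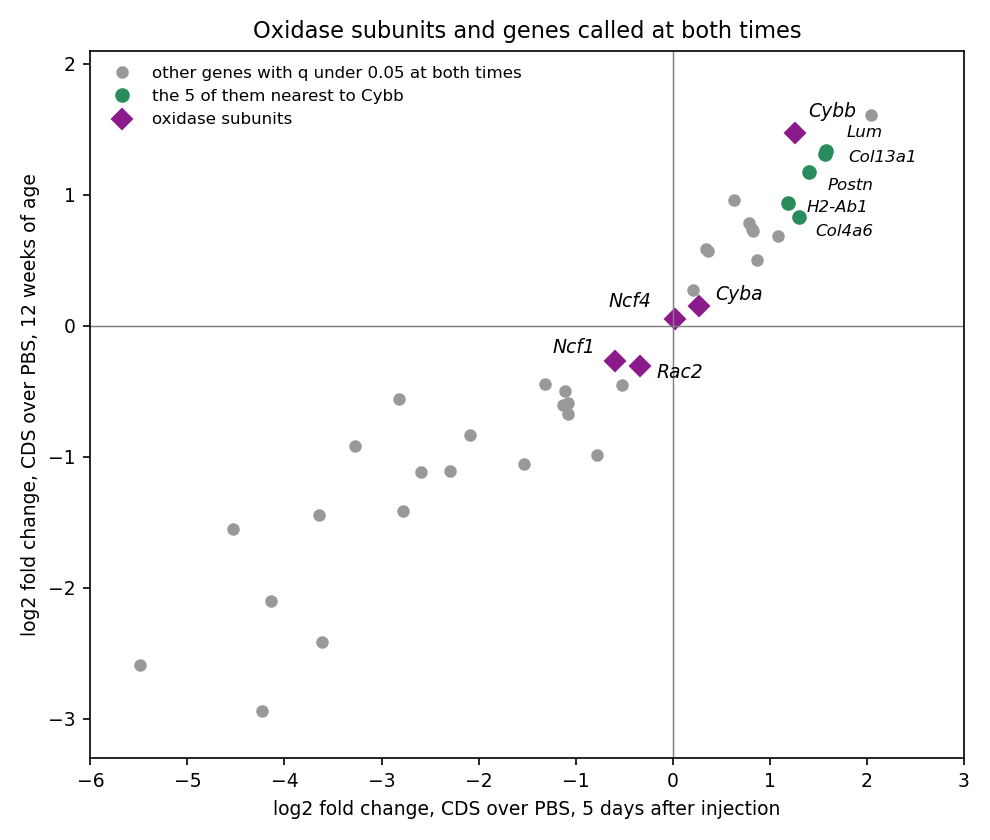
Log2 fold change (CDS over PBS) at 5 days after injection (horizontal axis) against that at 12 weeks of age (vertical axis). Diamonds are the 5 oxidase subunits, green points the 5 genes nearest to Cybb, and grey points the rest of the 36 genes with q under 0.05 at both times. Cybb lies at 1.27 and 1.47, and the other 4 subunits lie between -0.59 and 0.27 at 5 days and between -0.30 and 0.15 at 12 weeks.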

How the data were processed

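RNA from 20 samples of medial prefrontal cortex, 5 per group, was sequenced from 400 ng of total RNA in stranded libraries after ribosomal depletion, per the labels' protocols. The submitters' processing notes name STAR, featureCounts, DESeq2 and the build GRCm38.p5, without versions. Per the file headers, each of the authors' 2 tables holds a log2 fold change (CDS over PBS, as the tables are named) and a q-value. Depth per sample is unknown. Unused per-sample columns numbered 0.

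Members were taken by the deposited symbol. Other names came from the deposited symbol or, for 4015 of 4083 blank ones, from the gene ID through the reference table. Assuming Benjamini-Hochberg adjustment over all 20375 genes and a Wald test on unshrunken changes, each p was recovered from q and its rank, and a standard error as the log2 fold change over the matching normal z. At 12 weeks this was possible for 272 genes; a gene with the tied highest q had a p of at least 0.0133. The recovery was tested on simulated data. No new test was made. Some genes of the lists are not reported here. Analyses used Python 3.11.15, pandas 2.3.3 and scipy 1.17.1. GENCODE M21 lies on a later patch of the same build, whose primary chromosomes are the same.

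The members and gene lists were chosen with earlier results of these data known. Named genes were the members, the partners and other oxidases reported, up to 6 genes past the threshold of each other pathway list, the 3 smallest q at 5 days of each cell type list, and the 5 genes nearest to Cybb. The alternatives tried were stricter and looser q thresholds (0.01 and 0.1), a minimum change of 1.5-fold, Bonferroni adjustment, and adjustment over protein-coding genes alone.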

Additional observations from a re-analysis of the deposited data

How the results depend on the processing

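The count of subunits past the threshold, 1 of 5 at each time, was the same with q under 0.01 and with a fold of at least 1.5. At 5 days it was 2 with q under 0.1 and 2 with adjustment over protein-coding genes alone, Ncf1 being the second, lower gene; at 12 weeks it stayed at 1 in both. With Bonferroni adjustment it was 0 at both times. Of the 77 pathway genes, 21 passed at 5 days, against 13 with q under 0.01, 7 with Bonferroni adjustment and 16 to 23 in the other settings; 0 passed at 12 weeks in every setting run. The ranks that ties in q allow left the implied standard errors of the subunits within 0.001 of those given. No direction can change under these settings, which move the threshold only.

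No paired analysis was possible because the tables hold the authors' comparisons and no values per sample; for the same reason no replicate was left out. The implied errors rest on the assumed form of the authors' test.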

Other observations

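Genes of the class II antigen presentation pathway and of myeloid activation, which make up no part of the oxidase, were read beside Cybb. Of 7 class II genes, 2 rose at 5 days and 1 at 12 weeks, beside 2.75% and 0.0933% of all genes. The authors' deposited table put the median of the 7 at 0.59 and 0.66 at these times. H2-Ab1 rose both times. Cd74 rose by 1.04 at 5 days (q = 0.00144) and stood at 0.68 at 12 weeks without passing (q = 0.777, the authors' deposited table). The 1 gene of the 7 below 0 at 5 days was H2-DMb1, at -0.35 in the authors' deposited table. H2-Aa and H2-Eb1, chains of the same receptors as H2-Ab1, stood at 0.78 and 0.59 at 5 days and at 0.82 and 0.66 at 12 weeks in the authors' deposited table, without passing the threshold. Ciita, the transactivator of the class II genes, stood at 0.29 at 5 days and 0.00 at 12 weeks in the authors' deposited table. Of 12 genes of myeloid activation 8 were listed, and 2 fell at 5 days, beside 3.18% of all genes lower. The costimulatory Cd86 fell by 1.61 and the chemokine Cxcl10 by 1.77 (q = 1.08e-08 and 0.0442, the authors' deposited table). Nos2, the inducible nitric oxide synthase, whose product reacts with superoxide, stood at 0.26 at 5 days and 0.03 at 12 weeks in the authors' deposited table (q = 0.789 at 5 days). None of the 8 passed at 12 weeks, beside 0.191% of all genes. These genes were named after their values were seen.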
